A study of Mus musculus with 14 samples.

Results

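The regions described here were the H3K27ac peaks of BMP6-stimulated muscle stem cells (MuSCs) that had no counterpart in vehicle-treated cells. A peak was a member when it shared not even 1 bp with any H3K27ac peak of the vehicle list and had an irreproducible discovery rate (IDR, the estimated share of irreproducible peaks among those that rank at least as consistently in both replicates) of 0.01 or less. This rule selected 9635 of the 78050 H3K27ac peaks listed after BMP6, which is 12.3%, out of 175565 peaks in all 6 lists of the series. They are called BMP6-only peaks below. Another 12246 BMP6 peaks without a vehicle counterpart had an IDR above 0.01 and were not members. For comparison, 50758 BMP6 peaks with the same IDR did overlap a vehicle peak (shared peaks), and the mirror rule applied to the 67790 vehicle peaks gave 2991 vehicle-only peaks, or 4.41%.

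The study asked which genes BMP signaling acts on directly in adult MuSCs, the Pax7-positive cells that form and repair muscle fibers. CUT&Tag, in which an antibody brings a transposase to the chromatin it binds so that the DNA there is cut out and sequenced, was performed for H3K27ac, for phosphorylated SMAD1/5/9 and for SMAD4. All cells came from muscles of female mice of genotype C57BL/6N(Tg(Pax7-EGFP)Tajb), 9 weeks of age, and were sorted for the GFP that the Pax7 transgene drives, so every group carries this transgene. Every culture was starved of serum for 6 h in 200 ng/mL of soluble BMPR1A, a receptor fragment that captures BMPs. The cells were then given 100 ng/mL BMP6, or the vehicle (4 mM HCl with 0.1% BSA), for 1 h. Each library was made from 100000 cells, which had been fixed for 2 min with 0.1% formaldehyde, and was amplified for 13 cycles, with 2 biological replicates for each antibody and condition. The series has 14 libraries, and the 2 that lacked a primary antibody were not used. Each list joins both replicates of 1 condition, so no test over samples was possible, and tests below compare shares of peaks within these lists.

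H3K27ac is the acetylation of lysine 27 on histone H3, a mark placed by CBP and p300 on active promoters and enhancers. BMP ligands bind type I and type II serine/threonine kinase receptors, which phosphorylate SMAD1, SMAD5 and SMAD9. The phosphorylated proteins join SMAD4, enter the nucleus and act at enhancers and promoters of targets such as the Id genes. In MuSCs both BMP and Notch signaling are known to hold back myogenic differentiation.

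The DNA under a few of these peaks is shown first, since the rest of the account returns to them. All sequences are from the plus strand of GRCm39, and capitals mark matches to any of 7 motifs searched on both strands: GTCTAGAC (SMAD palindrome), GGAGCC or GGCGCC (BMP-responsive SMAD site), TGAGTCA or TGACTCA (AP-1), CAGCTG (E-box), GGAATG (TEAD), TGTGGT (RUNX) and TGACGTCA (CRE). The first 2 are the 150 bp around the pSMAD1/5/9 summits inside BMP6-only peaks upstream of Hes1 (chr16:29876036-29876185) and Lfng (chr5:140585933-140586082), both Notch pathway genes. The next is the 150 bp around the SMAD4 summit in the BMP6-only peak just upstream of Nrarp (chr2:25070545-25070694). Dpf1 names the strongest BMP6-only peak with both factors whose sequence is shown (chr7:29092875-29093024). The last 2 lie at the H3K27ac summits of the strongest BMP6-only peak of all, nearest to Rhox9 (chrX:37051112-37051261), and of the strongest shown that holds the SMAD palindrome, nearest to Tsr2 (chrX:149859123-149859322).
Hes1: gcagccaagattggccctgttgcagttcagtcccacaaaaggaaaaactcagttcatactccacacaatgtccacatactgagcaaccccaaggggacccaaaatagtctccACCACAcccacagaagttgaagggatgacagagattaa
Lfng: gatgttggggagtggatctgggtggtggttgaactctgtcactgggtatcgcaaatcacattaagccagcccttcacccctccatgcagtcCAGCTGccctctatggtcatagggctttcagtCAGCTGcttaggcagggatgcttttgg
Nrarp: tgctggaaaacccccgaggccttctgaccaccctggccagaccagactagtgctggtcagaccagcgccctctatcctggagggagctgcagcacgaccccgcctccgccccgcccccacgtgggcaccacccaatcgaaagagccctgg
Dpf1: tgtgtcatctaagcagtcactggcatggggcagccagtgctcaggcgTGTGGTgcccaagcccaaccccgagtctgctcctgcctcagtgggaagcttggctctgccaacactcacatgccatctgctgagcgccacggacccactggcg
Rhox9: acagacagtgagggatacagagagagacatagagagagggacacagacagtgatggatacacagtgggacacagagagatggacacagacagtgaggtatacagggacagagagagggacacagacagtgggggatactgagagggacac
Tsr2: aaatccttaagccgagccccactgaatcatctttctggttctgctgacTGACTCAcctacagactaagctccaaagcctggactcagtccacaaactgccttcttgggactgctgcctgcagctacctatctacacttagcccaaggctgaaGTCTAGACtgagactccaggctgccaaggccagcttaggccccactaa
None of the first 4 windows holds either SMAD motif as spelled here. The window around the SMAD4 summit in the BMP6-only peak at the promoter of Mfng, another Notch pathway gene, is not shown. It does hold a BMP-responsive SMAD site, and E-boxes as well. The 200 bp windows at the H3K27ac summits of the Hes1, Lfng and Dpf1 peaks each hold 1 BMP-responsive site. The Lfng window has 2 E-boxes, the Hes1 and Dpf1 windows have 1 RUNX match each, and the Nrarp window has no match to the 7 motifs. The Rhox9 window repeats itself: its 145 overlapping 6-letter words are only 75 different words, and 1 word occurs 7 times, against 138 different words in the Hes1 window. A match is a description of the letters and does not show that a factor was bound.

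The lists carried the marks of MuSCs. All 6 MuSC genes examined (Pax7, Myf5, Myod1, Cdh15, Itga7 and Vcam1) had an H3K27ac peak within 2 kb of their transcription start site (TSS) in both conditions, at ranks 14 to 1989 by signal after BMP6, and none of these was a BMP6-only peak. Only 1 of 5 fibro-adipogenic, 1 of 4 endothelial and 1 of 4 leukocyte genes had such a peak after BMP6 (Col1a1, Tek and Cd68), at ranks 26337 to 50045. Pdgfra, Dcn, Pecam1, Cdh5, Ptprc and Itgam had none. In material pooled from many cells, fewer cells with the mark and less mark per cell cannot be told apart. The replicate signals of the BMP6 H3K27ac list had a Spearman correlation of 0.829 over peaks, and those of the vehicle list 0.854. Peak borders lay on grids of 140 bp and 70 bp in the replicate columns of the BMP6 list and of 100 bp in both columns of the vehicle list, so the grid and the condition cannot be told apart. The files hold no read counts, and depth is unknown beyond the study's statement that reads were subsampled to an equal total per antibody.

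The BMP6-only peaks were on the whole weak and narrow members of their list, and since the rule used the IDR and the missing counterpart, these values are a description. Their median signal, the sum of the peak signals in both replicate columns, was 1517, with 90% of them between 1159 and 2498. The shared peaks had a median of 3311. None of the 9635 lay in the strongest 10% of the BMP6 list, 16 (0.166%) lay in the strongest 25% and 1169 (12.1%) in the strongest 50%. Their median width was 1260 bp, against 1960 bp for shared peaks. They covered 12.8 Mb in all, and the shared peaks covered 127 Mb. The replicate columns were balanced in these peaks: the first was the higher one in 4851 of 9635 (50.3%), the median of the larger over the smaller was 1.33-fold, and 6386 (66.3%) were within 1.5-fold, beside 69.8% of shared peaks.

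Many of these peaks sat beside acetylation that was present without BMP6. The nearest vehicle H3K27ac peak was a median of 3200 bp away. It lay within 1 kb of 2316 (24.0%), within 10 kb of 7288 (75.6%) and within 100 kb of 9491 (98.5%), and 29 (0.301%) touched a vehicle peak end to end. The vehicle-only peaks lay a median of 2360 bp from a BMP6 peak, with 29.9% within 1 kb and 80.5% within 10 kb. No share was taken for other places in the genome. At the threshold itself, the peak just inside, nearest to Gja6, had an IDR of 0.009997 with signals of 559 and 545 in the replicate columns. The peak just outside, nearest to Abca8b, had an IDR of 0.010001 with signals of 802 and 420. The lowest signal that passed was 1096 in the BMP6-only set and 1371 in the vehicle-only set, and no common scale for the lists is stated, so absence from a list says only that no peak there passed its own IDR threshold.

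Of the 12 strongest BMP6-only peaks, 7 lay on the X chromosome. The peak of highest signal lay 60.5 kb upstream of Rhox9, a reproductive homeobox gene, with 1621 in the first replicate column and 4556 in the second. A SMAD4 peak of vehicle cells, but none after BMP6, overlapped it. It was followed by a peak upstream of Esx1, another X-linked homeobox gene, with 2212 and 3649, and by one that reached the TSS region of Cfp, which encodes the complement factor properdin, with 2813 and 2389. On the autosomes the leading peak lay far upstream of Camk1g, a calcium/calmodulin-dependent kinase gene, with 2230 and 2747.

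The second replicate column was the higher one in 10 of the 12. The columns differed by as little as 1.04-fold at Nxf2, an mRNA export factor gene on the X chromosome (2224 and 2130). They differed by as much as 3.65-fold at Rtkn2 (936 and 3415). The peaks nearest to Dnaaf9, Tsr2, Nrk, Kcnf1 and Eola1, in introns or outside genes, had summed signals from 4326 to 4895. None of the 12 overlapped a pSMAD1/5/9 peak. The peak 195 kb upstream of Cdh6, a cadherin gene, was the only one with a SMAD4 peak after BMP6 (1378 and 3062), and it was 446.9 kb from the nearest vehicle H3K27ac peak. Even these 12 ranked only 9541 to 18205 in the list of 78050.

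**Figure D1:**
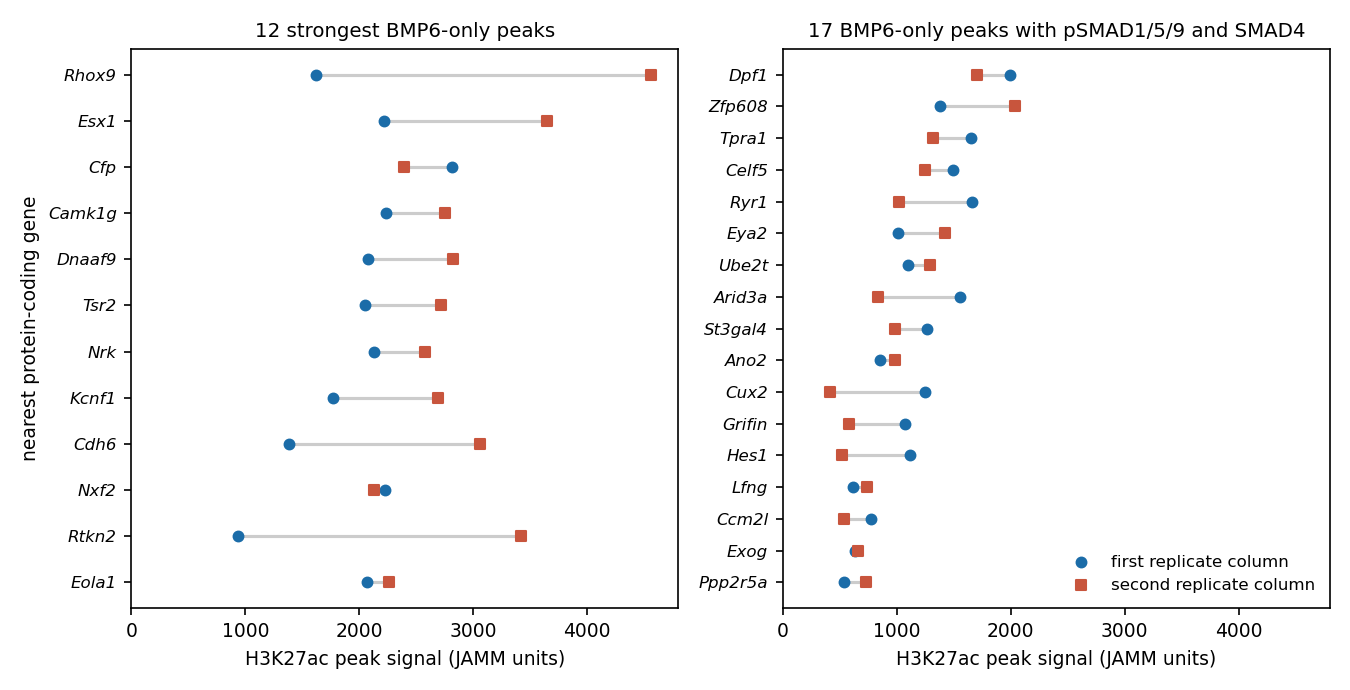
H3K27ac peak signal in the first (circles) and second (squares) replicate column of the BMP6 list, joined by a line, for the 12 strongest BMP6-only peaks (left) and for the 17 that overlapped both a pSMAD1/5/9 and a SMAD4 peak after BMP6 (right), each named by its nearest protein-coding gene. The columns stand far apart at Rhox9, Cdh6 and Rtkn2, and close together at Nxf2 and Exog.

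The X chromosome stood apart from every autosome. It held 1272 of the 9635 BMP6-only peaks (13.2%) but 5.14% of shared peaks. Of the X-chromosomal BMP6 peaks with an IDR of 0.01 or less, 32.8% were BMP6-only (95% Wilson interval 31.3 to 34.3), whereas the 19 autosomes ran from 9.45% on chromosome 19 to 19.7% on chromosome 14, with a median of 14.4%. The X chromosome stood apart in the vehicle list too, where 18.7% of its peaks were vehicle-only, against 2.44% to 7.89% on the autosomes. The ratio of BMP6-only to vehicle-only peaks was 2.18 on the X chromosome and 2.42 to 4.42 on the autosomes, and 3.22 over all chromosomes. Both condition-only shares were thus highest on this chromosome, and what sets it apart was not tested. Of the 100 strongest BMP6-only peaks, 50 were X-chromosomal. Their median signal on the X chromosome was 1654 and on the autosomes 1500.

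**Figure D2:**
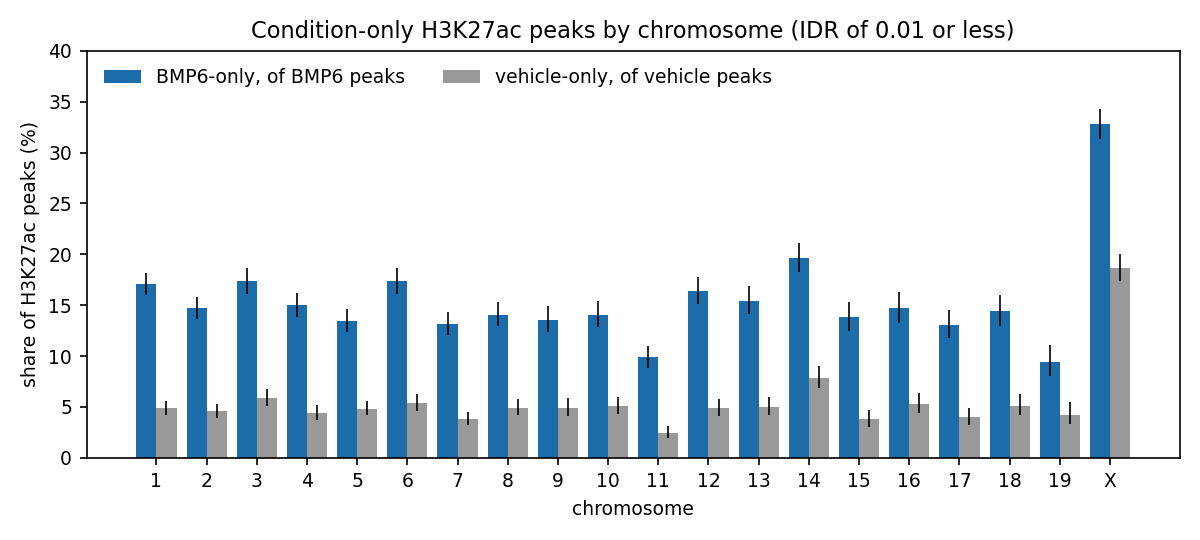
Share of H3K27ac peaks with an IDR of 0.01 or less that were BMP6-only (blue, percent of BMP6 peaks) and vehicle-only (gray, percent of vehicle peaks) on each chromosome, with 95% Wilson intervals as lines. The X chromosome has the highest share in both lists, 32.8% and 18.7%.

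Overlap with the BMP effectors was rare. Among the BMP6-only peaks, 40 overlapped a pSMAD1/5/9 peak of BMP6-stimulated cells (0.415%, 95% Wilson interval 0.305 to 0.565), and 7.65% of all BMP6 H3K27ac peaks did. A SMAD4 peak after BMP6 lay in 154 (1.60%, 1.37 to 1.87), against 12.4% of all BMP6 H3K27ac peaks. A SMAD4 peak of vehicle cells lay in 45 (0.467%). Neither factor was found after BMP6 in 9458 of the 9635 (98.2%). Read from the other side, 98.2% of the 7339 pSMAD1/5/9 peaks and 95.7% of the 12860 SMAD4 peaks after BMP6 overlapped some H3K27ac peak of the same cells, but only 40 (0.545%) and 157 (1.22%) overlapped a BMP6-only one.

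Compared with shared peaks, the BMP6-only peaks had a lower share with pSMAD1/5/9, 0.415% against 11.6% (difference -11.2 percentage points, 95% Newcombe interval -11.5 to -10.9). For SMAD4 after BMP6 the difference was -16.9 points (1.60% and 18.5%), and for SMAD4 in vehicle it was -12.4 points (0.467% and 12.9%). In a two-sided Fisher's exact test, with Benjamini-Hochberg adjustment over 8 comparisons, the adjusted p was returned as 0 in all 3 cases. BMP6-only regions by construction have no vehicle H3K27ac peak, whereas every shared peak overlaps one. The paper reports that most SMAD peaks overlapped H3K27ac peaks. The rule thus bears on the lower share with SMAD4 of vehicle cells, which is a description. How much of it the rule set was not tested. The vehicle-only peaks, which are themselves vehicle H3K27ac peaks, held SMAD4 of vehicle cells in 0.435%. Peaks that lie side by side or share a library are no independent units, and these p-values speak of the lists, not of the cells.

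The differences from shared peaks varied with the strength of the H3K27ac peak, in classes chosen after the data were seen. Among peaks with a signal under 1500, SMAD4 after BMP6 lay in 36 of 4627 BMP6-only peaks (0.778%) and in 35 of 4072 shared peaks (0.860%, Fisher's exact test, adjusted p = 0.721 over the 3 comparisons of the class). From 1500 to below 2000 the shares were 1.92% and 2.38% (exact test, adjusted p = 0.137), and from 2000 to below 3000 they were 3.03% and 4.13% (exact test, adjusted p = 0.0622). At 3000 or more they parted, with 8 of 137 BMP6-only peaks (5.84%) against 31.0% of 28061 shared peaks. That class is open at the top: BMP6-only peaks reach 6177 and shared peaks 50558.

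The share with pSMAD1/5/9 did not keep 1 direction over the classes. Below 1500 it was higher in the BMP6-only peaks, 12 of 4627 (0.259%) against 1 of 4072 (0.0246%; exact test, adjusted p = 0.0126). From 1500 to below 2000 it was lower, 0.266% against 0.599% (exact test, adjusted p = 0.0359), and at 3000 or more it was 5 of 137 (3.65%) against 20.3%. SMAD4 of vehicle cells was less frequent in BMP6-only peaks from 1500 to below 2000 (0.384% and 0.984%, exact test, adjusted p = 0.00249) and from 2000 to below 3000 (1.01% and 2.08%, exact test, adjusted p = 0.0111). In these classes too, the rule had left the BMP6-only peaks without vehicle H3K27ac, so these differences are a description.

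**Figure D3:**
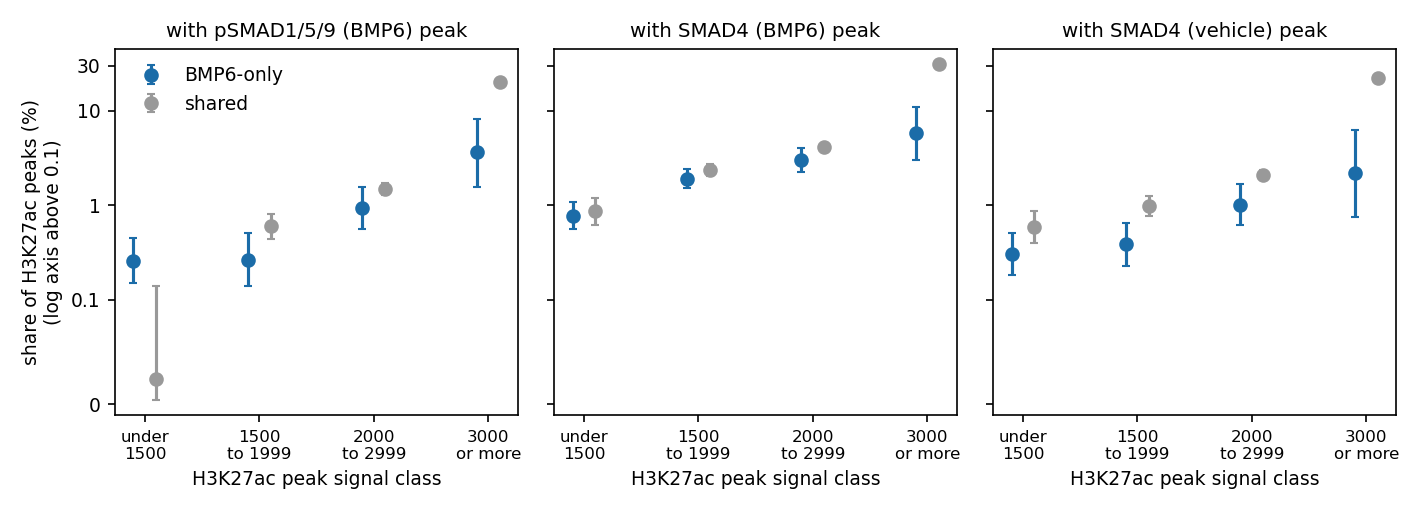
Share of H3K27ac peaks (percent, logarithmic axis above 0.1) that overlapped a pSMAD1/5/9 peak after BMP6, a SMAD4 peak after BMP6 or a SMAD4 peak in vehicle, for BMP6-only (blue) and shared peaks (gray) in 4 classes of H3K27ac signal, with 95% Wilson intervals. For SMAD4 after BMP6 the shares lie close together below a signal of 3000, for example 0.778% and 0.860% under 1500, and part at 3000 or more, 5.84% and 31.0%.

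Against the vehicle-only peaks, which are closer to them in width (median 1100 bp) and come from the other condition, the BMP6-only peaks more often held SMAD4 after BMP6, 1.60% against 13 of 2991 (0.435%). The difference was 1.16 percentage points (95% Newcombe interval 0.779 to 1.49; odds ratio 3.72; exact test, adjusted p = 1.7e-07). Vehicle-only regions by construction have no H3K27ac peak after BMP6, and SMAD4 peaks lay almost always within such peaks. The rule thus bears on the direction of this difference, which is a description, and its p-value is no support for an effect of BMP6. SMAD4 of vehicle cells was found in 0.467% and 0.435% (difference 0.0324 points, interval -0.297 to 0.272, exact test, adjusted p = 1.0), so the share of vehicle-only peaks with SMAD4 was the same, 13 of 2991, in both conditions. The share with pSMAD1/5/9 after BMP6 was 0.415% and 0.234%, with an interval of the difference from -0.0905 to 0.373 points (exact test, adjusted p = 0.197).

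Of the 154 BMP6-only peaks with SMAD4 after BMP6, 129 (83.8%) had no SMAD4 peak in vehicle. This was so for 47.5% of the 9393 such shared peaks and for 11 of the 13 such vehicle-only peaks (84.6%). The BMP6-only regions have no vehicle H3K27ac peak by the rule, which bears on the contrast with shared peaks. The median signal of the 154 was 1781, between 1145 and 4441, and that of the BMP6-only peaks without SMAD4 was 1514. They lay further from vehicle acetylation, with a median of 7585 bp to the nearest vehicle H3K27ac peak against 3160 bp. Intergenic sequence held 74 of them (48.1%), introns 52, exons 16 and TSS regions 12 (7.79%), and 9 (5.84%) were on the X chromosome. Without SMAD4 after BMP6, 31.6% were intergenic and 13.3% X-chromosomal.

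Both factors met in 17 BMP6-only peaks (0.176%), and 23 more (0.239%) had pSMAD1/5/9 without SMAD4, 7 of these on the X chromosome. Of the shared peaks, 9.02% held both factors and 2.60% held pSMAD1/5/9 without SMAD4. Of the 2991 vehicle-only peaks, 1 held both and 6 held pSMAD1/5/9 without SMAD4. All 17 BMP6-only peaks with both factors were autosomal. None was at a TSS, 7 touched exons, 4 lay in introns and 6 were intergenic, and 4 were within 10 kb of the nearest TSS. The summits of all 34 SMAD peaks fell inside them, and 29 of the 34 SMAD peaks lay wholly inside. A SMAD4 peak was listed in vehicle at 4 of the 17 (Dpf1, Celf5, Arid3a and Cux2).

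The strongest of the 17 lay in an intron, 89.6 kb from the TSS of Dpf1, a gene for a subunit of the BAF chromatin remodeler. Its H3K27ac signals were 1992 and 1700. It was the closest of all 17 to vehicle acetylation, 0.5 kb away. The next lay 314.3 kb from Zfp608, a zinc finger gene, with 1382 and 2040, and was followed by a peak 11.2 kb from Tpra1 with 1654 and 1318.

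A peak with 1663 and 1019 touched an exon and lay 63.6 kb from the TSS of Ryr1, which encodes the calcium release channel of the sarcoplasmic reticulum. A peak with 1007 and 1420 lay 35 kb upstream of Eya2, a coactivator of homeodomain factors in myogenesis. The columns were furthest apart, in fold, at Cux2, a homeobox gene, with 1244 and 417. The others named by the same rule, nearest to Celf5, Ube2t, Arid3a, St3gal4, Ano2 and Grifin, had summed signals from 1654 at Grifin to 2743 at Celf5.

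Of the 17, 2 lay upstream of listed Notch pathway genes, a count that was not compared with that of other genes. The peak upstream of Hes1, a transcriptional repressor and Notch target, was 1400 bp wide with its summit 7.9 kb before the TSS, with H3K27ac signals of 1115 and 519. It was 4.5 kb from the nearest vehicle H3K27ac peak. Inside it the pSMAD1/5/9 peak of 579 bp had signals of 11195 and 11563 and ranked 2942 of 7339, and the SMAD4 peak of 595 bp had 3580 and 4505 and ranked 7538 of 12860. Neither factor was listed there in vehicle. The Hes1 promoter itself carried acetylation in both conditions, and SMAD4 was listed at it in both.

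Lfng, a glycosyltransferase that modifies Notch receptors, had 2 BMP6-only peaks upstream. The one 7.1 kb before the TSS, with 614 and 741, held a pSMAD1/5/9 peak with signals of 8032 and 5839 and a SMAD4 peak with 4199 and 3195. The one 3 kb before the TSS, with 933 and 722, held neither. No SMAD4 or pSMAD1/5/9 peak was listed in vehicle within 25 kb of the Lfng TSS. These are weak H3K27ac peaks, ranked 48843 at Hes1 and 56288 at the distal Lfng peak. The paper, which found both genes upregulated by BMP6, reports no change of H3K27ac peaks at its differentially expressed genes.

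**Figure D4:**
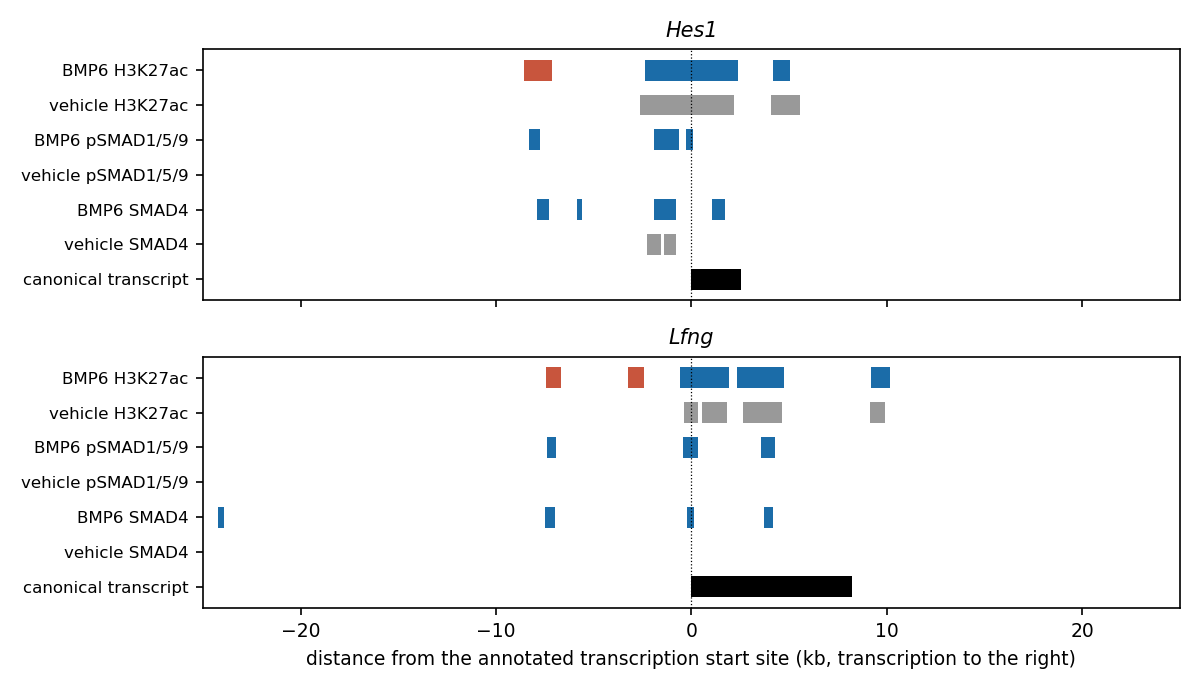
Peaks of the 6 lists within 25 kb of the TSS of Hes1 and Lfng, by distance from the TSS in kb, after BMP6 (blue) and in vehicle (gray), with BMP6-only H3K27ac peaks in red and the canonical transcript in black. The red peak upstream of Hes1 and the distal red peak upstream of Lfng each lie over a pSMAD1/5/9 and a SMAD4 peak that have no vehicle counterpart at that place.

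Over the whole pathway list, 13 of 23 Notch genes (56.5%) had at least 1 BMP6-only peak within 20 kb of the gene body, beside 30.6% of all 21757 protein-coding genes (6648). A vehicle-only peak was near 4 of 23 (17.4%), beside 12.4% of all genes. The median body of the 23 genes was 17.6 kb. Of all genes from 10 to 50 kb, 29.8% had a BMP6-only peak and 10.9% a vehicle-only peak. The 22 Notch gene peaks had signals from 1170 to 2506, with a median of 1434, and 4 overlapped SMAD4 after BMP6. Besides Hes1 and Lfng these were at the promoters of Nrarp, a feedback inhibitor of Notch (1293 and 498), and of Mfng, another fringe glycosyltransferase (660 and 546). Neither promoter peak overlapped pSMAD1/5/9 or a SMAD4 peak of vehicle cells. Nrarp had 7 H3K27ac peaks within 20 kb after BMP6 and 3 in vehicle, and Hes5, a Hes family repressor, had 4 and 1. The lists lie on different grids, so such counts do not measure the amount of acetylation.

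The other Notch genes with BMP6-only peaks were the receptors Notch1 and Notch2, the ligand Jag2, the DNA-binding effector Rbpj, the coactivators Maml1, Maml2 and Maml3, and the inhibitor Numb. The strongest of these peaks (1366 and 1140) touched an exon 131.9 kb from the Notch2 TSS and was nearer to that of Adam30, and Maml3 had the most, 5 over a gene body of 419 kb. Hey1 and Heyl, both Hes-related repressors, had none. No count in a list was tested, and the share of genes with such a peak rises with the length of the gene: 16.1% of genes under 10 kb, 29.8% from 10 to 50 kb, 49.7% from 50 to 200 kb and 57.6% at 200 kb or more.

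Of 21 BMP target and feedback genes, which are short with a median body of 8.5 kb, 3 (14.3%) had a BMP6-only peak nearby, beside 16.1% of all genes under 10 kb: Skil (821 and 926, nearest to the TSS of Cldn11), Ski (694 and 477) and Dlx2 (564 and 675), of which Skil and Ski encode repressors of SMAD activity and Dlx2 a homeobox factor. None of the 3 peaks overlapped a SMAD peak. Id1, Id2, Id3, Smad6 and Smad7, the inhibitors of differentiation and the inhibitory SMADs, had none. Id1 had 7 pSMAD1/5/9 and 11 SMAD4 peaks within 20 kb after BMP6, with 2 H3K27ac peaks after BMP6 and 6 in vehicle. None of these H3K27ac peaks was BMP6-only or vehicle-only, and a count of peaks does not measure the amount of acetylation. Of the early response genes none had a BMP6-only peak, 0 of 14, while Fos and Junb had 7 and 4 H3K27ac peaks after BMP6. The median gene body of the early response list was 5.3 kb.

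Receptors and SMADs had BMP6-only peaks at 9 of 16 genes (56.3%), with a median gene body of 64.4 kb, beside 49.7% of all genes from 50 to 200 kb. None of the 11 peaks overlapped SMAD4. The peak at the TSS of Acvrl1, a type I receptor, had 1168 and 657. Those within Eng, a coreceptor, had 1395 and 520 and 917 and 803, and the peak in Smad1, which encodes a BMP effector itself, had 962 and 903. Bmpr1a, Bmpr1b, Bmpr2, Acvr1, Smad3 and Smad4 had 1 or 2 each. Vehicle-only peaks lay near 5 of the 16 genes (31.3%), beside 22.3% of all genes from 50 to 200 kb.

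Of all genes from 10 to 50 kb, 29.8% had a BMP6-only peak and 10.9% a vehicle-only peak. Among 19 myogenic and muscle genes, with a median body of 19.3 kb, 11 (57.9%) had BMP6-only peaks. None had a vehicle-only peak, and these small counts were not tested. The highest (994 and 1144) was near the 3′ end of Mef2a, a muscle transcription factor gene, and nearer to the TSS of Lysmd4, 8 kb away, and a peak at the TSS of Mef2c had 982 and 802. The only one with SMAD4 lay 7.9 kb downstream of the TSS of Mymk, the myoblast fusion gene Myomaker (905 and 606), and SMAD4 was listed there in vehicle as well. A single peak 5.3 kb downstream of the TSS of Myf5 (627 and 608) counted for both Myf5 and its neighbor Myf6, a pair of myogenic determination factor genes. Pax3, Mef2d, Six4, Eya1, Ckm and Acta1 had 1 to 3 peaks each.

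Stem cell surface and niche genes, with a median body of 26.1 kb, had BMP6-only peaks at 6 of 13 (46.2%), beside 29.8% of all genes from 10 to 50 kb. A vehicle-only peak was near 3 of the 13 (23.1%), beside 10.9% of all genes from 10 to 50 kb. The BMP6-only peaks were led by Sdc3, the stem cell proteoglycan syndecan-3, with 3 peaks of which the strongest had 1158 and 1881. Met, the receptor of hepatocyte growth factor, and Fgfr1 had 3 each, and Cd34, Cxcr4 and Cav1 had 1 or 2. Of 11 osteogenic and chondrogenic genes, with a median body of 57.35 kb, 6 (54.5%) had BMP6-only peaks, beside 49.7% of all genes from 50 to 200 kb. Vehicle-only peaks lay near 3 of the 11 (27.3%), beside 22.3% of all genes from 50 to 200 kb. Sox5, with a gene body of 954 kb, had 9 BMP6-only and 2 vehicle-only peaks. Runx2, the master regulator of bone formation, had 5 and 2. Acan, the cartilage proteoglycan aggrecan, had no H3K27ac peak in vehicle within 20 kb and 2 after BMP6. The stronger lay 17.2 kb upstream with 999.3 and 2267 and was 93.1 kb from any vehicle peak. The other had its summit 2.7 kb upstream of the TSS of the neighbor Hapln3 and lay 0.7 kb from a vehicle peak. Runx1, Sox6 and Alpl had 1 to 4 BMP6-only peaks. The peak within Alpl, the bone alkaline phosphatase gene, had 587 and 589 and overlapped SMAD4.

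The genes with the most BMP6-only peaks were long. Dmd, the X-linked dystrophin gene, had 27 within 20 kb of its body of 2257 kb, and also 18 vehicle-only peaks. Hs6st2, a heparan sulfate sulfotransferase gene, and Foxp1, a forkhead repressor gene, had 17 each with 4 vehicle-only peaks each. Dst, a cytoskeletal linker gene, and Cdkal1 had 15 each with 0 vehicle-only peaks, and Snd1 had 15 with 4. Agap1, Atrx, Pola1 and Rapgef2 had 13 or 14. Per length of the gene with its flanks, Atrx, a chromatin remodeler gene on the X chromosome, stood highest of these 10 with 8.15 per 100 kb. There 14 of 28 BMP6 H3K27ac peaks were BMP6-only, against 14 peaks of any kind in vehicle, counted in lists on different grids.

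Some BMP6-only peaks lay in runs. In 2701 cases (28.0%) another lay within 10 kb, against 11.9% for the vehicle-only peaks. The vehicle-only peaks are fewer, which by itself lowers their share. No share was taken over all BMP6 H3K27ac peaks, so whether runs are particular to the BMP6-only peaks was not tested. There were 251 runs of 3 or more with 833 peaks in all. A run of 6 over 20.6 kb included the strongest BMP6-only peak near Rhox9, touched no protein-coding gene and held no vehicle H3K27ac peak. Further runs of 6 lay at Smarcb1 and its neighbors, Abcc4, Clasp1, Ankrd28 and Pgk1, and the longest of them, over 32.6 kb at Ankrd28, had 2 vehicle peaks in it. These runs were picked by their size, after their values were seen.

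Promoters were seldom involved. A region within 2 kb of a TSS was touched by 471 BMP6-only peaks (4.89%), against 15.1% of all BMP6 H3K27ac peaks and 20.9% of shared ones. The difference from shared peaks was -15.96 percentage points (95% Newcombe interval -16.5 to -15.4; exact test, adjusted p returned as 0). Within classes of signal it ran from -0.0695 points under 1500 (4.47% and 4.54%, exact test, p = 0.877) through -3.77 points from 2000 to below 3000 (5.12% and 8.90%, exact test, p = 2.33e-07) to -23.7 points at 3000 or more (8.03% and 31.7%, exact test, p = 5.8e-11). The vehicle-only peaks were lower again at 3.71%, with a difference of 1.18 points (interval 0.331 to 1.94; odds ratio 1.33; exact test, adjusted p = 0.00931). Introns held 42.4% of the BMP6-only peaks, exons 20.8% and intergenic sequence 31.9%. These shares rest on canonical transcripts. With all annotated transcripts, 9.97% of BMP6-only, 26.2% of shared and 7.69% of vehicle-only peaks were at a TSS. Seen from the genes, 323 of 21574 TSS regions (1.497%) had a BMP6-only peak and no vehicle peak, 29 of them on the X chromosome, while 61 (0.283%) had a vehicle-only peak and no BMP6 peak.

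The strongest of those TSS peaks, again named after their values were seen, were at Nxf2 on the X chromosome and at Il13ra2, a decoy receptor gene for interleukin-13, with 1951 and 1972. Tex13a (1295 and 2486) and Renbp (1704 and 1644) were the leading ones with pSMAD1/5/9, and neither held SMAD4. Of the autosomal ones, Msh4, a meiotic mismatch repair gene, was the strongest with 1388 and 2199.

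Of 7 motifs, 4 were less frequent at the summits than in shared peaks. In 200 bp around the summit, BMP6-only peaks held a BMP-responsive SMAD site in 14.5%, against 21.6% of shared peaks (difference -7.14 percentage points, interval -7.92 to -6.34; exact test, adjusted p = 8.09e-60 over 14 comparisons). The E-box was found in 15.0% and 22.03% (exact test, adjusted p = 1.1e-56), AP-1 in 8.85% and 11.8% (exact test, adjusted p = 1.28e-16) and CRE in 0.259% and 0.487% (exact test, adjusted p = 0.00359). Within classes of signal below 3000 the E-box difference remained, from -4.61 points under 1500 (exact test, adjusted p = 1.03e-07 over 7 comparisons) to -7.66 points from 2000 (exact test, adjusted p = 1.29e-11), whereas the BMP-responsive site, AP-1 and CRE passed in none of these 3 classes. With the second replicate column alone the differences from shared peaks shrank to -3.11 points for the BMP-responsive site, -2.96 for the E-box and -0.961 for AP-1, and without peaks at a TSS that of the BMP-responsive site was -2.14. The windows also differed in composition, with a median GC content of 48.5% in BMP6-only, 51.5% in shared and 48.0% in vehicle-only peaks, and the part of this in the motif shares was not tested.

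Against vehicle-only peaks 2 of the 7 motifs passed. AP-1, the site of FOS and JUN dimers, was more frequent in BMP6-only summits, 8.85% against 5.85% (difference 3.00 points, interval 1.95 to 3.98; exact test, adjusted p = 2.18e-07). With the intervals of the second replicate column alone the difference was 1.07 points and did not pass (exact test, adjusted p = 0.0818). The E-box, bound by myogenic basic helix-loop-helix factors among others, was less frequent, 15.0% against 20.6% (difference -5.60 points, interval -7.24 to -4.01; exact test, adjusted p = 4.79e-12). The BMP-responsive SMAD site was at 14.5% and 13.5%, with an interval of the difference from -0.475 to 2.35 points (exact test, adjusted p = 0.263), but in 400 bp windows it passed with 26.4% and 23.4% (exact test, adjusted p = 0.0016). The bin grids of the BMP6 and vehicle lists, on which the summits were placed, also differ.

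The SMAD palindrome was rare everywhere. It lay in 28 BMP6-only summits (0.291%), in 0.234% of shared and in 3 vehicle-only summits (0.100%), and neither difference passed (exact test, adjusted p = 0.394 and 0.154). In 400 bp windows both did, with 0.654% in BMP6-only, 0.477% in shared and 0.267% in vehicle-only peaks (exact test, adjusted p = 0.0392 and 0.0199). Of the 28, 5 overlapped SMAD4 and 2 pSMAD1/5/9 after BMP6. The Tsr2 window shown above, with the palindrome and an AP-1 match, overlapped neither. TEAD sites, at 12.1%, and RUNX sites, at 18.7%, passed against neither set (exact tests, adjusted p from 0.137 to 0.768). Without peaks at a TSS both were less frequent than in shared peaks, by -1.92 points for TEAD (exact test, adjusted p = 2.46e-06) and -2.73 points for RUNX (exact test, adjusted p = 2.14e-08). In all peaks the TEAD interval was -1.37 to 0.0516 points against shared peaks and -0.356 to 2.25 points against vehicle-only peaks. For RUNX the intervals were -1.24 to 0.460 and -1.37 to 1.82 points.

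**Figure D5:**
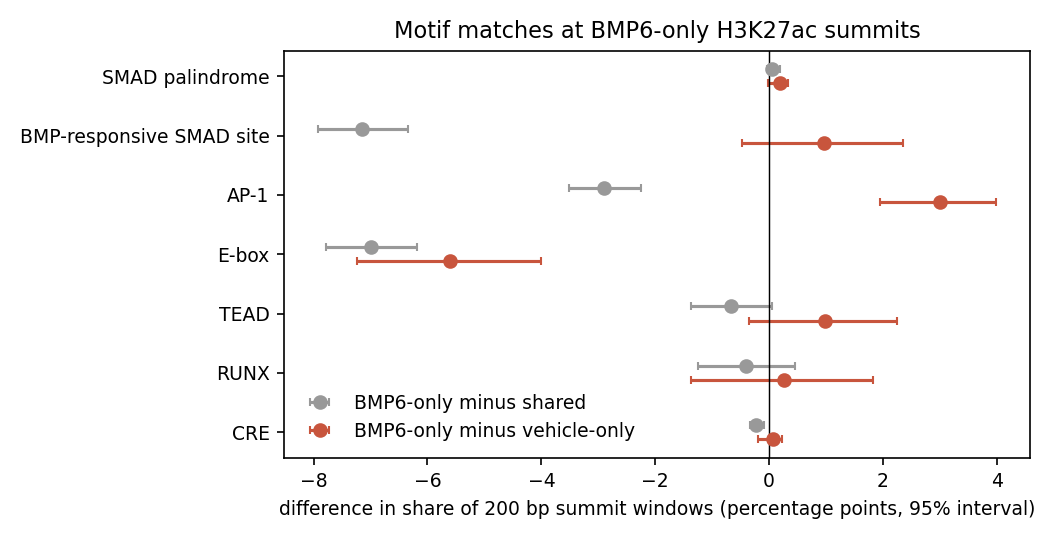
Difference in the share of 200 bp summit windows with each of 7 motifs, BMP6-only minus shared (gray) and BMP6-only minus vehicle-only (red), in percentage points with 95% Newcombe intervals. AP-1 lies left of 0 against shared peaks and right of 0, at 3.00 points, against vehicle-only peaks, while the E-box lies left of 0 in both.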

How the data were processed

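CUT&Tag peak lists of 6 antibody and condition groups (12 libraries) were used. The authors aligned reads, subsampled to an equal total per antibody, to GRCm39 with Bowtie2 2.5.4, filtered them with SAMtools 1.21, converted them with bedtools 2.31.1 (versions also in the submitters' processing notes), called peaks per replicate with JAMM and joined both replicates with IDR at 0.05. The deposited columns are a scaled IDR score, the peak signal (JAMM units) and the −log10 of the IDR. Every deposited column belonged to a group, and no replicate column carries a number; they are called first and second by position.

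From these lists, overlap was counted at 1 bp, and location against canonical transcripts of 21757 protein-coding genes (GENCODE vM39; TSS within 2 kb, then exon, intron, intergenic) in Python 3.11.15 with numpy 2.4.6, pandas 2.3.3 and pysam 0.24.0. Shares have 95% Wilson intervals, which cover counting error only. Shares were compared by two-sided Fisher's exact tests (scipy 1.17.1) with Benjamini-Hochberg adjustment, threshold 0.05, checked on simulated data. Named genes were the nearest gene of the 12 strongest members and of the 12 strongest with both factors, the 10 genes with most members within 20 kb, and listed genes with a member. The members and gene lists were chosen with earlier results of these data known. Some marker genes are not reported here.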

Additional observations from a re-analysis of the deposited data

How the results depend on the processing

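Results were recomputed with other IDR thresholds, a 1 kb gap to the other list, autosomes only, 1 replicate column at a time, other SMAD, TSS and motif settings, and width classes, and, added after the data were seen, signal classes. Numbers of peaks moved with the IDR: 21881 BMP6-only and 8945 vehicle-only at 0.05, 2351 and 453 at 0.001. With 1 replicate column left out they were 9846 to 9867 and 3108 to 3141. Differences below are in percentage points, BMP6-only minus the other set. Against shared peaks, signal classes turned pSMAD1/5/9 to 0.235 under 1500 and took away the calls of pSMAD1/5/9 from 2000 to below 3000 (-0.528), of SMAD4 after BMP6 under 1500 (-0.0815), from 1500 to below 2000 (-0.463) and from 2000 to below 3000 (-1.1), of SMAD4 in vehicle under 1500 (-0.287) and of the TSS share under 1500 (-0.0695). The class under 500 bp in width, with 9 members and 7 shared peaks, left SMAD4 after BMP6 at -14.3 without a call. Against vehicle-only peaks, SMAD4 after BMP6 lost its call at 2000 bp or more in width (0.884), and SMAD4 in vehicle, never called, turned to -0.0998 from 500 to below 1000 bp. Comparisons with no overlap in either set gave no value. The other recomputed shares with SMAD peaks and at a TSS, and the other peak numbers, kept direction and call or, for peak numbers, stayed within 1.5 times, but sizes moved. Against shared peaks, pSMAD1/5/9 ran from -0.731 (width 500 to below 1000 bp) through -4.01 (1000 to below 2000 bp) to -20.5 (2000 bp or more) and SMAD4 after BMP6 from -2.45 through -7.09 to -29.2. With SMAD peaks at an IDR of 0.01 these were -6.13 and -9.75, and SMAD4 after BMP6 against vehicle-only peaks was 0.336.

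Of the 7 motifs, 5 instead of 2 passed against vehicle-only peaks in 400 bp windows, and 1 to 3 with a replicate column left out, and 1 or 2 instead of 4 passed against shared peaks within a signal class. Among single motifs, 101 recomputed differences kept direction and call, 13 lost and 12 gained a call. Outside the signal classes, the lost ones were CRE against shared peaks (-0.21 at an IDR of 0.001, -0.144 without the second replicate column, -0.0671 without peaks at a TSS) and AP-1 against vehicle-only peaks (1.07 without the first). Gained against shared peaks were TEAD (-0.79 at an IDR of 0.05, -1.92 without peaks at a TSS), RUNX (-2.73 without peaks at a TSS, -2.09 and -3.52 in the signal classes from 1500 and from 2000) and the palindrome (0.273 at an IDR of 0.001, 0.177 in 400 bp windows). Gained against vehicle-only peaks were the BMP-responsive site (0.984 at an IDR of 0.05, 1.71 without the second replicate column, 3.06 in 400 bp windows), TEAD (2.14) and the palindrome (0.386), these last in 400 bp windows. The turned directions, none past the threshold, were these. TEAD against vehicle-only peaks was -0.485 at an IDR of 0.001. RUNX against shared peaks was 0.338 with the 1 kb gap, 0.414 in 400 bp windows and 0.364 to 0.62 with 1 replicate column left out, and 4.05 at a signal of 3000 or more. CRE against shared peaks was 0.0904 under 1500, 0.129 from 2000 to below 3000 and 0.0493 at 3000 or more, and the SMAD palindrome -0.125 under 1500. RUNX against vehicle-only peaks was -0.095 on autosomes and -0.66 to 0.226 with 1 replicate column left out. CRE against vehicle-only peaks was -0.0086 to 0.0829 with 1 replicate column left out and -0.00681 in 400 bp windows. The causes were not tested. No paired analysis was possible because each list is 1 consensus per condition and its replicate columns carry no replicate number.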
